A study of Mus musculus with 9 samples.

Results

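The genes described here are 10 receptors, bridging molecules and partners of efferocytosis, the clearance of dying cells by phagocytes: Axl, Mertk, Tyro3, Gas6, Pros1, Mfge8, Stab1, Trem2, Tyrobp and Apoe. They were given as a list of mouse symbols, with no threshold on their values, and were found by Entrez identifier among the 18755 genes of the deposited counts. The list was chosen with earlier results of these data known, so shares set against all genes describe it and are no test. All 10 were found and all 10 passed the filter on low counts that left 13966 genes for testing. The tumors grew from 4T1 cells, a murine mammary carcinoma line, in the mammary fat pad of female BALB/c mice aged 6 to 10 weeks. From day 15 after the injection of the cells, the mice of 6 tumors received 50 mg/kg of BI 853520 (hereafter BI), an inhibitor of focal adhesion kinase (FAK), daily for 5 days, and those of 3 tumors received only its carrier, 0.5% Natrosol (vehicle). No allele or transgene is named for either group, and all 9 tumors came from the same cell line. Each tumor gave 1 messenger RNA library made from a frozen piece, so cancer, immune and stromal cells were measured together. The paper kept only tumors whose RNA quality sufficed, so these 9 may not be all that were treated. The tumors are numbered 1 to 3 (vehicle) and 4 to 9 (BI).

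Dying cells expose phosphatidylserine, which phagocytes bind through receptors on their surface or through soluble bridging proteins. Axl, Mertk and Tyro3 are the TAM receptor tyrosine kinases, and their ligands Gas6 and protein S (Pros1) attach to phosphatidylserine. Mfge8 links phosphatidylserine to integrins of the alpha v class, which signal through FAK, while stabilin-1 (Stab1) binds the lipid itself. Trem2 recognizes lipids and lipoproteins, Apoe among them, and signals through the adaptor DAP12 (Tyrobp). Macrophages use many of these molecules, and Axl is made by carcinoma and stromal cells as well.

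In BI-treated tumors, transcripts of 7 of the 10 genes rose, those of Axl and Mfge8 fell, and Tyro3 was not called. The rises ran from 1.48-fold for Pros1 to 2.67-fold for Apoe. The falls were to 0.72 of the vehicle level for Axl and to 0.832 for Mfge8. A gene was called when its adjusted p (edgeR quasi-likelihood test, Benjamini-Hochberg over all genes tested) was at most 0.05. Of the 13966 genes tested, 14.6% were called as rising and 14.1% as falling. At the study's own cutoffs, an unadjusted p of at most 0.05 together with a fold change of about 1.5 in either direction, 6 of the 10 genes rose, against 9.59% of all genes, and 0 fell, against 3.57%. Every BI tumor lay above every vehicle tumor for 7 members, against 14.1% of all genes, and below every vehicle tumor for 1 member, Axl, against 14.0%. The median log2 fold change was 0.72 over the 10 members and -0.00371 over all genes tested. In whole tumor pieces, a change in the number of cells of a type and a change in the RNA of each cell cannot be told apart.

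Total counts ranged from 21727879 to 33850245 in the vehicle tumors and from 16931607 to 22349873 in the BI tumors, so that 3 counts corresponded to between 0.0884 and 0.174 CPM, the count of a gene per 1000000 counts of the library after TMM scaling. Every member was far above this level in every tumor. By Dixon's criterion, which needs at least 4 samples, no BI tumor stood apart for any member. Among the marker lists, all 8 macrophage markers rose, with a summed level of 1079 to 1390.5 CPM in vehicle and 1805 to 2503 CPM in BI tumors. Of 9 neutrophil markers 4 fell and 0 rose, with a summed level of 550 to 769.7 CPM in vehicle and 236 to 391 CPM in BI tumors. T cell, dendritic cell and mast cell markers rose in 5 of 6 cases each, endothelial markers in 3 of 6 and fibroblast markers in 1 of 8. The 5 adipocyte and 4 skeletal muscle markers were not called. Of 8 carcinoma markers, Krt8 and Krt18 fell and the other 6 were not called, whereas at the study's cutoffs 2 of the 8, Epcam and Cldn3, rose and 0 fell. Epcam was low in both groups, with 2.13 ± 0.603 CPM in vehicle and 4.42 ± 2.96 CPM in BI tumors. Cldn3 was lower still, with 0.266 ± 0.164 CPM in vehicle and 0.708 ± 0.412 CPM in BI tumors. Its lowest vehicle value, 0.0895 CPM, lay within the range of the level of 3 counts. The members were set against the macrophage list only, and the part of these shifts in their changes was not tested.

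**Figure D1:**
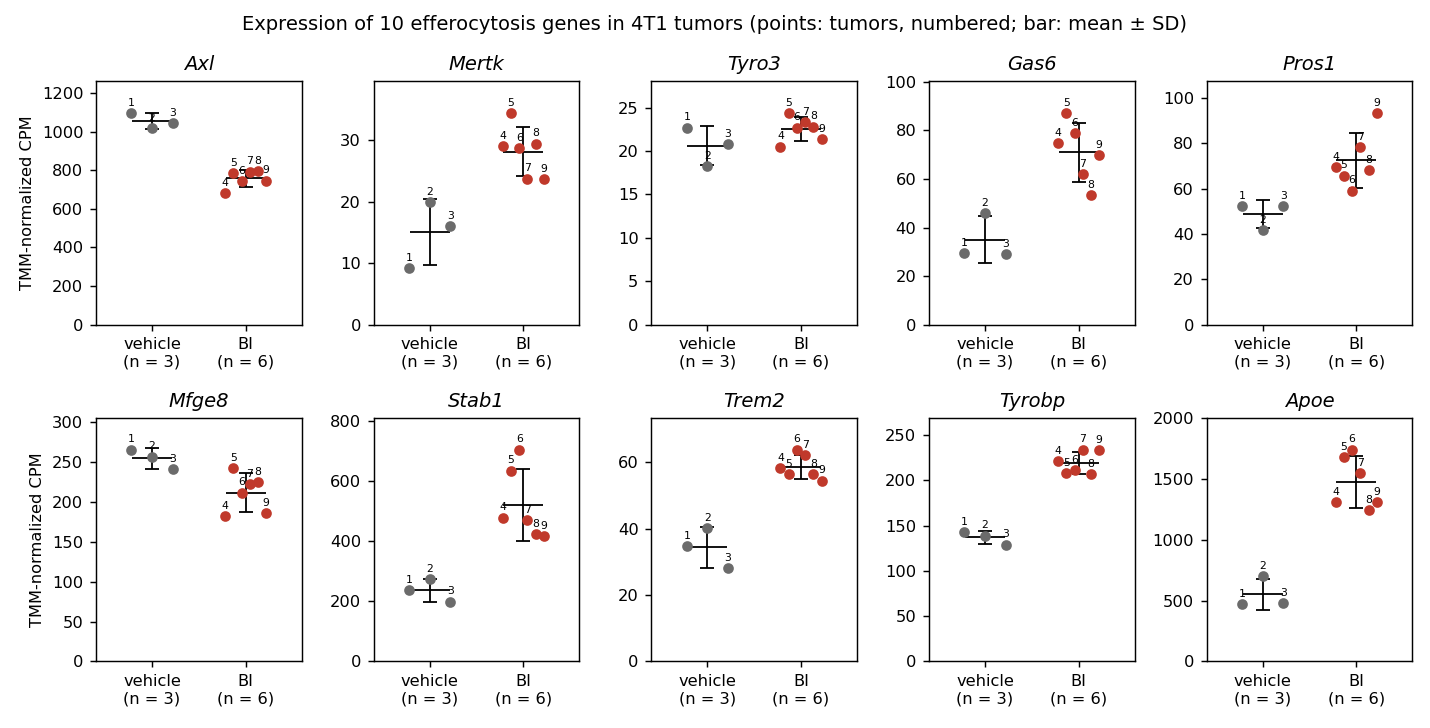
Normalized level of each of the 10 genes in each tumor, in CPM on linear axes that start at 0, with numbered points for single tumors (vehicle grey, BI red) and bars for the group mean ± SD. The BI tumors lay wholly above the vehicle tumors for Mertk, Gas6, Pros1, Stab1, Trem2, Tyrobp and Apoe and wholly below them for Axl, and the groups overlapped for Tyro3 and Mfge8.

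The upstream sequences of 5 members are given because they belong to the genes that fell (Axl and Mfge8) and to 3 that rose in every BI tumor (Stab1, Trem2 and Apoe). Each is the 250 bases before a transcription start site of RefSeq on GRCm38.p6, read 5′ to 3′ on the gene's strand: Axl chr7:25788734-25788983 (minus), Mfge8 chr7:79149061-79149310 (minus), Stab1 chr14:31168642-31168891 (minus), Trem2 chr17:48346151-48346400 (plus) and Apoe, the second of its 3 listed starts, chr7:19698622-19698871 (minus). Capitals mark matches, on either strand, to the letters CATTCC (TEAD), TGANTCA (AP-1), GAGGAA (PU.1), GGGCGG (SP1) and CACGTG (E-box).
Axl: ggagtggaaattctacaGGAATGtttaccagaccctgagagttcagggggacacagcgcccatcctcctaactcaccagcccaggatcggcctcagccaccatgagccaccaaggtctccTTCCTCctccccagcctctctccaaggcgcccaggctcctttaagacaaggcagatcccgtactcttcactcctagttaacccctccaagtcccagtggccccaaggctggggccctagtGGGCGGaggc
Mfge8: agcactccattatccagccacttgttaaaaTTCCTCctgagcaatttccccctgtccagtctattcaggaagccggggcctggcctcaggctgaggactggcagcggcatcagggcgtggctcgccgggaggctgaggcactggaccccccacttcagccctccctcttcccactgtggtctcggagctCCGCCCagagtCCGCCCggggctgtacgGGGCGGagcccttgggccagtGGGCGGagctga
Stab1: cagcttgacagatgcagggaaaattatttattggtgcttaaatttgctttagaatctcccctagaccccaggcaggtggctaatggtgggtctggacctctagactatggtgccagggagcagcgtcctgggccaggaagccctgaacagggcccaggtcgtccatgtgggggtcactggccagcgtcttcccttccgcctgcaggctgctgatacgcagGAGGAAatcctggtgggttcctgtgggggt
Trem2: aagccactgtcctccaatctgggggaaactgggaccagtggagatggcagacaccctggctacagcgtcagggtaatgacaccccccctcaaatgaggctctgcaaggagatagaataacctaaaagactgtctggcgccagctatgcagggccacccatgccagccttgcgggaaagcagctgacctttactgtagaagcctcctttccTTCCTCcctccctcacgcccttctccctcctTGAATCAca
Apoe: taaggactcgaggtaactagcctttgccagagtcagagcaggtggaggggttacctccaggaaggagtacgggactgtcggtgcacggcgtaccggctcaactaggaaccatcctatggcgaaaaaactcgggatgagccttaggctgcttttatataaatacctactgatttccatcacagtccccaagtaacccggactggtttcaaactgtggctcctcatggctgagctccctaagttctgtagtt
The window before Axl held the TEAD, PU.1 and SP1 letters, and that before Mfge8 the PU.1 and SP1 letters, the latter in 4 places. The windows of Stab1 and Trem2 held the PU.1 letters, and that of Trem2 also those of AP-1 next to the start. The Apoe window shown held none of them, whereas start 1 of Apoe held the PU.1 letters and start 3 those of TEAD and PU.1. RefSeq promoters were found for 9 of the 10 members (not Tyrobp), with 11 starts in all. For 8 of them, a short stretch of bases just after the start occurred somewhere in a transcript of the gene, in the annotation of the files' build. The start of Axl was among the 3 for which it did not. Whether a transcript began at these starts was not tested. Over the 9 members, the PU.1 letters were found for 5 genes, those of SP1 for 6, of TEAD for 2 (Axl and another start of Apoe), of AP-1 for 1 and of the E-box for 0. Among the first 250 upstream bases of all 32851 promoters, 23.3% held the PU.1 letters, 32.7% those of SP1, 12.6% those of TEAD, 6.75% those of AP-1 and 6.02% the E-box. The members are counted per gene over any of their 11 starts and the background per promoter, so these shares are not like for like. The member windows held from 51.2% (Apoe, the start shown) to 73.2% (Tyro3) of G and C, against a median of 52.4% over all promoters. The TEAD and PU.1 letters can share bases on opposite strands, as they did at start 3 of Apoe. These are matches of letters only, and binding was not measured.

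Within the TAM receptors, the levels moved in opposite directions. Axl (Entrez 26362, mm9 chromosome 7, 26542292 to 26573724, minus strand) was the most abundant of them per length. Its level was 1097, 1016 and 1045 CPM in vehicle tumors 1 to 3 and 682, 786, 744, 793, 794 and 746 CPM in BI tumors 4 to 9. All 6 BI tumors lay below the vehicle tumors, and the spread within each group was small. The mean fell from 1053 ± 40.8 (SD, n = 3) to 758 ± 43.5 CPM (SD, n = 6), with a log2 fold change of -0.47 (SE 0.0664, adjusted p = 0.000374, edgeR). Its fold change stayed below the study's fold limit.

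Mertk (Entrez 17289, chromosome 2, 128524692 to 128628630, plus strand), the TAM receptor best known from macrophages, rose. It measured 9.26, 20 and 16 CPM in the vehicle tumors and 29.1, 34.5, 28.7, 23.8, 29.5 and 23.7 CPM in the BI tumors. The groups did not overlap, although vehicle tumor 1 lay well under the other two. The mean changed from 15.1 ± 5.4 to 28.2 ± 4.05 CPM, a log2 fold change of 0.90 (SE 0.198, adjusted p = 0.00573, edgeR), and it was 0.66 without vehicle tumor 1.

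Tyro3 (Entrez 22174, chromosome 2, 119623469 to 119643840, plus strand), the TAM receptor prominent in the nervous system, measured 22.7, 18.3 and 20.8 CPM in vehicle and 20.5, 24.4, 22.7, 23.3, 22.8 and 21.4 CPM in BI tumors. The groups overlapped. Its log2 fold change was 0.13 (SE 0.0862, adjusted p = 0.287, edgeR), so a change was not resolved.

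Both TAM ligands rose. Gas6 (Entrez 14456, chromosome 8, 13465374 to 13494535, minus strand), which binds each of the TAM receptors, measured 29.4, 46.0 and 29.2 CPM in vehicle and 74.7, 87.2, 78.8, 62.0, 53.3 and 69.9 CPM in BI tumors. Even the lowest BI tumor exceeded the highest vehicle tumor. The log2 fold change was 1.03 (SE 0.174, adjusted p = 0.00123, edgeR), with means of 34.9 ± 9.67 and 71.0 ± 12.1 CPM.

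Pros1 (Entrez 19128, chromosome 16, 62854133 to 62929172, plus strand) encodes protein S, a ligand of Mertk and Tyro3 that also serves as an anticoagulant cofactor. It measured 52.4, 41.6 and 52.5 CPM in vehicle and 69.7, 65.8, 59.2, 78.3, 68.3 and 93.5 CPM in BI tumors. The groups were separate, with BI tumor 9 the highest. The mean changed from 48.8 ± 6.27 to 72.5 ± 12.0 CPM, a log2 fold change of 0.57 (SE 0.131, adjusted p = 0.00756, edgeR), just under the study's fold limit.

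Mfge8 (Entrez 17304, chromosome 7, 86278655 to 86293946, minus strand), the bridge to alpha v integrins, measured 266, 257 and 241 CPM in vehicle and 182, 243, 212, 223, 225 and 186 CPM in BI tumors. BI tumor 5 lay within the vehicle range and the other 5 lay below it. The mean fell from 255 ± 13.0 to 212 ± 23.9 CPM, a log2 fold change of -0.27 (SE 0.0891, adjusted p = 0.0427, edgeR). This call was lost in 8 of the 9 fits that left out a tumor, with adjusted p between 0.0162 (without BI tumor 5, the fit that kept it) and 0.148, and with a filter of at least 1 CPM in 3 tumors (adjusted p = 0.0518).

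Stab1 (Entrez 192187, chromosome 14, 31952199 to 31981827, minus strand), a scavenger receptor of macrophages and sinusoidal endothelium, measured 237, 274 and 199 CPM in vehicle and 479, 636, 706, 472, 424 and 417 CPM in BI tumors. All 6 BI tumors were well above the vehicle tumors, with tumors 5 and 6 the highest. The mean rose from 237 ± 37.6 to 522 ± 119.9 CPM, a log2 fold change of 1.14 (SE 0.178, adjusted p = 0.000729, edgeR). Its exons overlap those of Nt5dc2 on the opposite strand, and whether the counting used strand is not stated. Nt5dc2 itself fell from 98.0 ± 10 to 80.3 ± 6.18 CPM (log2 fold change -0.29, adjusted p = 0.0177, edgeR).

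Trem2 (Entrez 83433, chromosome 17, 48485726 to 48493472, plus strand), a lipid receptor of macrophages and microglia, measured 34.8, 40.3 and 28.1 CPM in vehicle and 58.2, 56.4, 63.9, 62.3, 56.6 and 54.5 CPM in BI tumors. The BI tumors lay close together and all above the vehicle tumors. The log2 fold change was 0.77 (SE 0.101, adjusted p = 0.000247, edgeR).

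Tyrobp (Entrez 22177, chromosome 7, 31198807 to 31202596, plus strand), the adaptor that carries the signal of Trem2 and of other myeloid and natural killer receptors, measured 143, 139 and 129 CPM in vehicle and 221, 208, 211, 234, 207 and 233 CPM in BI tumors. The groups were far apart and the spread within each was small. Its mean rose from 137 ± 7.15 to 219 ± 12.2 CPM (log2 fold change 0.67, SE 0.0631, adjusted p = 3.84e-05, edgeR), the smallest adjusted p of the 10 genes.

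Apoe (Entrez 11816, chromosome 7, 20281458 to 20284515, minus strand), the lipoprotein component secreted by macrophages and bound by Trem2, showed the largest change of the 10. It measured 472, 701 and 481 CPM in vehicle and 1309, 1684, 1744, 1548, 1247 and 1312 CPM in BI tumors. The groups were separated by a wide gap. The mean rose from 551 ± 129.7 to 1474 ± 213 CPM, a log2 fold change of 1.42 (SE 0.156, adjusted p = 8.43e-05, edgeR).

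**Figure D2:**
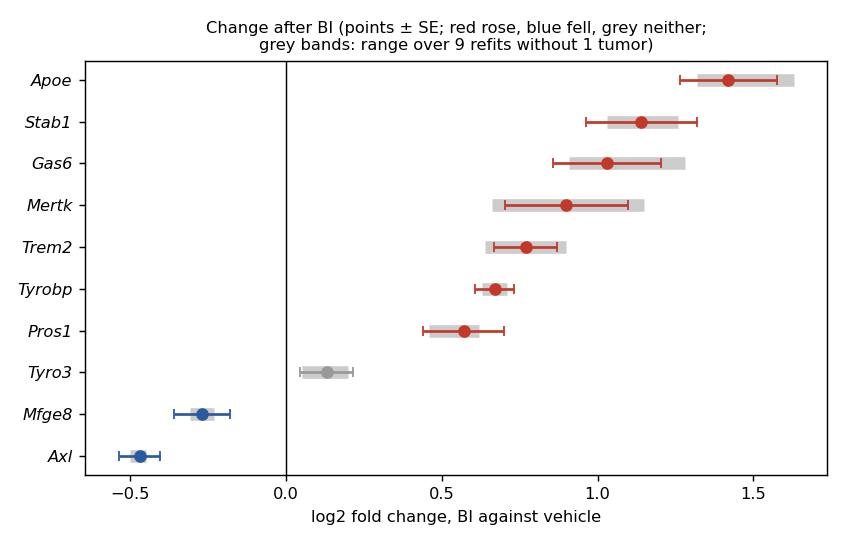
Log2 fold change (BI over vehicle) of each gene with its standard error from the edgeR fit (red rose, blue fell, grey was not called), and grey bands for the range over the 9 fits that left out 1 tumor. Apoe stands at 1.42 and Axl at -0.47, and Tyro3, at 0.13, was not called.

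Levels can be compared between genes only per length, here as CPM per kilobase of the deposited gene length. In vehicle tumors the order was Apoe (441), Tyrobp (243), Axl (207), Mfge8 (119.8), Trem2 (30.0), Stab1 (29.6), Pros1 (14.9), Gas6 (13.4), Tyro3 (5.16) and Mertk (4.24). Neighbours overlapped between tumors for Trem2 with Stab1, Pros1 with Gas6 and Tyro3 with Mertk. In BI tumors Apoe (1178), Tyrobp (387) and Axl (149) still led. Mfge8 (99.6) overlapped with Stab1 (65.3), Stab1 with Trem2 (51.2), and Gas6 (27.4) with Pros1 (22.2), whereas Mertk (7.94) now lay above Tyro3 (5.64) without overlap.

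Ratios taken within each tumor asked whether a receptor and its ligand, adaptor or relative moved by different amounts. Of 8 ratios, 5 differed between the groups by an exact permutation test over the 84 divisions of the tumors (two-sided p = 0.0238, the smallest the design allows, and 0.0381 after adjustment over the 8 ratios). The quotient of Axl to Mertk fell by 1.44 on the log2 scale, from a geometric mean of 72.9 to 26.9, and lay lower in all 6 BI tumors than in any vehicle tumor. Gas6 relative to Axl rose by 1.52, from 0.0324 to 0.0928. Mfge8 relative to Mertk fell by 1.23, from 17.6 to 7.51. Tyro3 relative to Axl rose by 0.61 and Apoe relative to Trem2 by 0.65, the latter from 15.9 to 24.9. Each of these was separate in 6 of 6 BI tumors. For all but Apoe to Trem2 this outcome was fixed by the ranges of the single genes. Axl lay below every vehicle tumor in all 6 BI tumors, and Mertk and Gas6 lay above. The groups overlapped for Mfge8 and Tyro3, but by too little to offset the shift of Mertk or Axl. The p-values of all ratios but Apoe to Trem2 therefore add nothing to the single-gene results. The adjusted value of 0.0381 rests on 5 ratios sharing the smallest possible p, those fixed in advance included. The other 3 did not pass, with overlapping groups: Tyro3 to Mertk at -0.83 (exact permutation p = 0.0476, adjusted 0.0635), Gas6 to Pros1 at 0.48 (exact permutation p = 0.238, adjusted 0.272) and Trem2 to Tyrobp at 0.11 (exact permutation p = 0.333, adjusted 0.333). Leaving out vehicle tumor 1 gave -0.44 for Tyro3 to Mertk, and leaving out vehicle tumors 1, 2 or 3 gave 0.32, 0.81 and 0.31 for Gas6 to Pros1 and 0.09, 0.22 and 0.01 for Trem2 to Tyrobp.

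Since the macrophage markers rose with most members, each member was also set against them. The reference was the mean log2 CPM of the 8 macrophage markers, among them Adgre1, Cd68, Csf1r and Mrc1, whose median log2 fold change was 0.83. Relative to this list, Apoe rose further, by 0.59 on the log2 scale, and lay above every vehicle tumor in all 6 BI tumors. Axl (-1.32), Mfge8 (-1.12), Tyro3 (-0.71) and Tyrobp (-0.17) were lower relative to the list, each in 6 of 6 BI tumors. These 5 passed the exact permutation test (p = 0.0238, adjusted over the 10 members 0.0476). The list mean itself was 6.63 to 6.88 in vehicle and 7.42 to 7.67 in BI tumors. Genes that fell (Axl, Mfge8) or were not called (Tyro3) therefore had to lie lower against it. Their tests here add nothing to the single-gene results, and the value for Tyro3 mostly gives the rise of the markers. Mertk (0.12, exact permutation p = 0.667, with a difference of -0.26 without vehicle tumor 1), Gas6 (0.20, p = 0.333), Stab1 (0.28, p = 0.214), Pros1 (-0.28, p = 0.143) and Trem2 (-0.06, p = 0.548, and 0.06 without vehicle tumor 2) did not pass. The adjusted value of 0.0476 rests on 5 members sharing the smallest possible p. For Apoe and Tyrobp the groups were barely separate on this scale. The lowest BI value of Apoe was 2.72 and its highest vehicle value 2.7. The highest BI value of Tyrobp was 0.27 and its lowest vehicle value 0.28. With the median over the macrophage list as the reference, 0 of 10 passed, with an adjusted p of 0.0595 for Axl, Tyro3, Mfge8 and Apoe and 0.0952 for Tyrobp (exact permutation test).

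**Figure D3:**
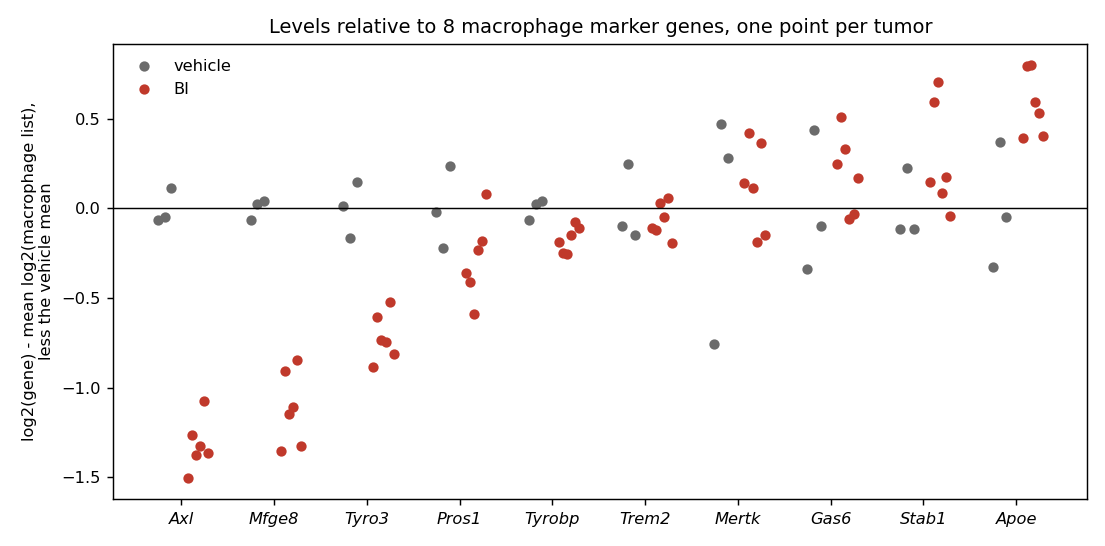
Log2 CPM of each gene less the mean log2 CPM of the 8 macrophage markers, 1 point a tumor (vehicle grey, BI red), with the vehicle mean of each gene set to 0. Apoe lay higher in all 6 BI tumors than in the vehicle tumors, Axl, Mfge8, Tyro3 and Tyrobp lay lower in all 6, and the groups overlapped for the other 5 genes.

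Among the other genes of the pathway, given in 7 lists, 46 of 104 tested rose (44.2%, against 14.6% of all genes), 7 fell (6.73%, against 14.1%) and 51 were not called, with a median log2 fold change of 0.31. These lists too were chosen with earlier results of these data known, so their shares are a description and no test. In the list of other receptors and bridging molecules, 9 of 21 rose (42.9%) and 2 fell (9.52%). The complement C1q chains, which coat dying cells, were the clearest. C1qb rose from 273 ± 25.5 to 591 ± 44.2 CPM (log2 fold change 1.11, adjusted p = 1.29e-05, edgeR), C1qa by 1.06 (adjusted p = 6.63e-05) and C1qc by 0.99 (adjusted p = 0.000103). Of the integrin chains that receive Mfge8, Itgb5 rose by 0.28 (adjusted p = 0.0433), with 5 of 6 BI tumors above vehicle, while Itgb3 was at -0.21 (adjusted p = 0.0585) and not called, with 5 of 6 below vehicle. The 2 that fell, named here after their values were seen, were the alpha v chain Itgav (-0.46, adjusted p = 0.00167) and annexin A1, Anxa1 (-0.41, adjusted p = 0.000487). Adgrb1, Stab2, Megf10 and Tub did not pass the filter on low counts.

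The engulfment machinery remodels actin around the dying cell. Of its 14 genes, 6 rose (42.9%, against 14.6% of all genes) and 2 fell (14.3%, against 14.1%). Dock2, the Rac activator of blood cells, rose by 0.76 on the log2 scale (adjusted p = 4.54e-05, edgeR), Vav1 by 0.87 (adjusted p = 0.000172) and Rac2 by 0.77 (adjusted p = 0.000264). Ptk2, the gene of FAK, fell from 229.7 ± 15.4 to 199 ± 9.28 CPM (log2 fold change -0.20, adjusted p = 0.0259, edgeR), below vehicle in 6 of 6 BI tumors. The other gene that fell was Bcar1 (p130Cas, a FAK partner), named after its value was seen, at -0.45 (adjusted p = 0.00266). Among 10 genes of find-me, eat-me and don't-eat-me signals, Sirpa, the phagocyte receptor for Cd47, was the only one called, at 0.70 (adjusted p = 7.57e-05, edgeR). Among 5 genes of receptor shedding and vitamin K-dependent carboxylation, only Adam10, a protease that sheds surface receptors, was called, at 0.32 (adjusted p = 0.0323, edgeR).

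In the list of Trem relatives and signalling partners of Tyrobp, 14 of 19 rose (73.7%, against 14.6% of all genes). At this threshold 0 fell, against 14.1% of all genes, and the median was 0.65. Trem1 had a log2 fold change of -0.49 (adjusted p = 0.111, edgeR). The lipid phosphatase Inpp5d rose by 0.92 (adjusted p = 8.76e-06), the phospholipase Plcg2 from 81.9 ± 2.15 to 188 ± 27.0 CPM, or by 1.20 (adjusted p = 3.59e-05), and the kinase Btk by 0.90 (adjusted p = 5.74e-05). Of 21 genes of lipid efflux and nuclear receptors, 11 rose (52.4%) and 1 fell (4.76%). The cholesterol exporter Abcg1 rose from 35.0 ± 2.31 to 87.0 ± 10.4 CPM (log2 fold change 1.32, adjusted p = 1.29e-05, edgeR). Abca1, which loads cholesterol onto apolipoproteins, rose by 0.87 (adjusted p = 3.42e-05), and the phospholipid transfer protein Pltp by 0.72 (adjusted p = 0.000105).

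The genes of lipid-associated macrophages, a state in which Trem2 and Apoe are often high, moved in both directions. Of 14, 4 rose (28.6%, against 14.6% of all genes) and 2 fell (14.3%, against 14.1%), and the median was 0.02. Cst7, a cystatin, rose by 1.08 (adjusted p = 5.94e-05, edgeR) and cathepsin B, Ctsb, by 0.51 (adjusted p = 0.0104). Gpnmb, a transmembrane glycoprotein, fell from 67.2 ± 13.0 to 23.9 ± 4.8 CPM (log2 fold change -1.49, adjusted p = 6.51e-05, edgeR). Cd63, the other gene that fell, was at -0.25 (adjusted p = 0.0115) and is named after its value was seen. Spp1, osteopontin, measured 4433 ± 1235 and 4167 ± 904 CPM (log2 fold change -0.09, adjusted p = 0.77, edgeR) and was not called.

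**Figure D4:**
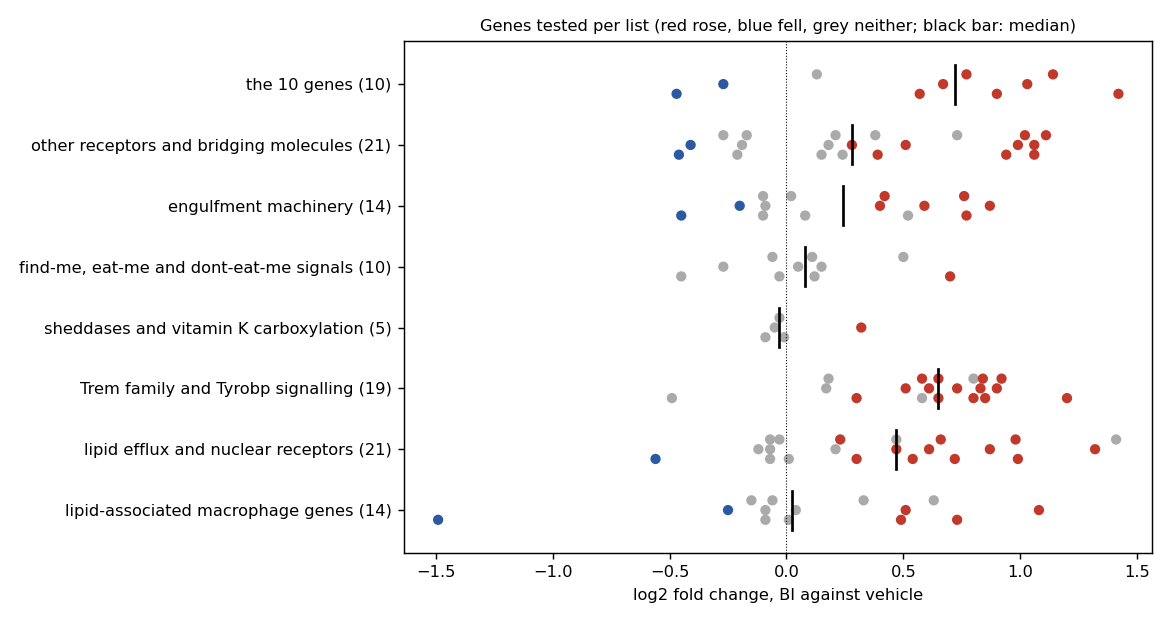
Log2 fold change (BI over vehicle) of every tested gene in the 10 members and in 7 lists of other pathway genes, 1 point a gene (red rose, blue fell, grey was not called), with the median of each list as a black bar. The Trem and Tyrobp signalling list has a median of 0.65 with 0 genes called as falling, and the lipid-associated macrophage list spreads around 0.02.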

How the data were processed

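Messenger RNA of 9 tumors (3 vehicle, 6 BI) was sequenced from a strand-specific library kit. Per the labels and the study's methods, the authors aligned reads to mm9 with STAR and counted them per RefSeq gene with QuasR, and the deposited values are raw counts with a gene length. Whether counting used strand is not stated. The titles carry a different code for each tumor without saying what it marks, so p-values measure the spread between these samples, and no library batch is given. Replicates differed by more than sampling noise (chi-square per degree of freedom 8.83 to 30.0 within groups and 34.2 to 79.7 between groups), so none was counted as a duplicate.

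Genes (18700 of 18755 with a RefSeq symbol) were tested with edgeR 4.0.16 in R 4.3.3: filterByExpr (minimum count 10, minimum total 15), TMM factors (0.984 to 1.02), quasi-likelihood F test without covariates, Benjamini-Hochberg over 13966 genes. SE is the size of the log2 fold change over the square root of F. CPM were scaled by the TMM factors, with a prior count of 2 added before logs were taken. Floors cover counting error only. Ratios and macrophage-relative values used exact permutation tests in Python 3.11.15. The code was tested on simulated data. Positions of genes are from GENCODE on mm9, and promoters are from RefSeq on GRCm38.p6.

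All members are named. From each pathway list, the 3 called genes with the smallest p are named, and any of Ptk2, Abca1, Spp1, Gpnmb, Itgb5 and C1qa. Some single genes are not reported here. The members and lists were chosen with earlier results of these data known. Alternatives were RLE or library size alone, 2 other filters, DESeq2 1.42.0, limma-voom (limma 3.58.1), edgeR's likelihood ratio test, the fold limit, a prior count of 0.5, medians, and leaving out each tumor.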

Additional observations from a re-analysis of the deposited data

How the results depend on the processing

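The 7 rising calls among the 10 members held under every other scaling, filter and test run, and leaving out each tumor gave 7 to 7; the fold limit left 6, without Pros1. Of the 2 falling members, Axl kept its call in all fits by p alone, while Mfge8 did not: 1 member fell with at least 1 CPM in 3 tumors, and 1 to 2 fell when a tumor was left out. With the study's cutoffs, or with adjusted p and the fold limit, 0 fell. Among the other pathway genes, 46 rose and 7 fell, 34 to 46 and 5 to 8 with a tumor left out, and 1 fell with the study's cutoffs and 1 with adjusted p and the fold limit. RLE in place of TMM moved the median log2 fold change of all genes by 0.0036, and library size alone by 0.00182. With medians of the groups, 0 of 8 ratios and 0 of 10 macrophage-relative members passed (5 and 5 with means), but an exact test on medians cannot go below 0.0714 here, so these counts say nothing of stability. Relative to the macrophage list, the sign reversed with group medians for Mertk (-0.15) and Trem2 (0.02), neither having passed before, and leaving out a vehicle tumor turned it as well. With the median over the macrophage list, 0 passed, since Tyrobp no longer had the smallest p and the adjustment over the rest then rose. With 8 tumors the exact permutation tests cannot go below 0.0714 (2 against 6) or 0.0357 (3 against 5), so left-out tumors gave values only, all in the main direction for the ratios that had passed. No paired analysis was possible because the labels give no pairing between vehicle tumors (1 to 3) and BI tumors (4 to 9). Only 3 vehicle tumors set the spread of that group, and every member lay well above the floor of 3 counts.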

Other observations

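Pairs of members were compared across the 9 tumors after the mean of each group was subtracted from log2 CPM, a test added after seeing the data. Of 45 pairs, 0 passed an exact permutation test within groups after Benjamini-Hochberg adjustment (4320 permutations, smallest adjusted p 0.135), while the unadjusted p was at most 0.05 for 8. Stab1 and Apoe had r = 0.824 (Spearman's rho 0.633, exact permutation p = 0.00602 for r and 0.0694 for rho), and r = 0.904 without vehicle tumors 1 and 3. Axl and Tyro3 had r = 0.808 (rho 0.817, exact permutation p = 0.00463 for r and 0.0144 for rho), and r = 0.863 without the same tumors. Gas6 and Apoe had r = 0.811 (rho 0.9, exact permutation p = 0.0315 and 0.0134), and r = 0.64 without the same tumors. Pros1 and Stab1 ran in opposite directions, with r = -0.77 (rho -0.783, exact permutation p = 0.0266 and 0.0278), and r = -0.718 without vehicle tumor 2 and BI tumor 9. The tumors left out were the 2 farthest from the median of the first gene named, before group means were subtracted. Vehicle tumors 1 and 3 were therefore picked largely for their group, and their removal left a single vehicle tumor. For those pairs the values cannot show whether outlying tumors drove r.

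The genes outside the list whose levels were most like those of 8 of the members over the 9 tumors, again after group means were subtracted, were Brox (Pearson r = 0.971) and Zfp326 (0.966) for Mertk, Ttc13 (0.965) and Dgcr2 (0.961) for Tyro3, and Lztfl1 (0.969) and F13a1 (0.969) for Gas6. For Pros1 they were Ccsap (0.985) and Ptprg (0.984), and for Stab1 Wdr13 (0.98) and Nenf (0.976). For Trem2 they were Clta (0.945) and Upf3a (0.931), for Tyrobp Trpv2 (0.986) and Lax1 (0.964), and for Apoe Zgpat (0.959) and Tslp (0.956). These are the highest of 13966 genes over only 9 tumors whose libraries also differ in depth, and are given as a description without a test.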
